A study of Mus musculus with 4 samples.

Results

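The genes described here code for the protein part of the mitochondrial ribosome. They are the rows of the deposited expression table whose symbol starts with Mrpl (large subunit) or Mrps (small subunit) followed by a digit, 77 of 24388 genes, of which 48 belong to the large and 29 to the small subunit. The samples were suspensions of spermatocytes, the germ cells that go through meiosis, from testes of C57BL/6 mice. The control group had 2 RNA-sequencing libraries and the Np95 knockout group had 2. Np95, the product of Uhrf1, recruits the maintenance DNA methyltransferase to newly replicated DNA, and the study's title asks how that methylation before meiosis bears on chromosome pairing in meiotic prophase. The age is given as 21 dpc for every library. The column names write the knockout as cKO, while the sample labels call it a knock out. For the Cre line, the cells in which the gene was removed and any pooling of animals, nothing was found among the sources used here. The labels' protocols describe chopping of seminiferous tubules, enzyme digestion and a mesh, with no sorting step.

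The mitochondrial ribosome makes the few proteins that the mitochondrial genome encodes, all of them subunits of the respiratory chain and of ATP synthase. Its RNA comes from the mitochondrial genome, whereas its proteins are encoded in the nucleus, made in the cytosol and imported. Many of these proteins descend from bacterial ribosomal proteins, and others were gained in the mitochondrial lineage. In structures of the mammalian particle, 2 proteins with a small-subunit name, Mrps18a and Mrps30, sit in the large subunit, and Mrps36 is now known as an adaptor of the oxoglutarate dehydrogenase complex.

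Transcripts of the large-subunit members were mostly lower in the knockout, while those of the small-subunit members moved both ways. Of the 77 members, 68 reached 1 RPKM in at least 2 of the 4 libraries and were tested, 43 of the large and 25 of the small subunit. RPKM is the number of reads scaled to gene length and to library depth. In the large subunit 23 genes fell, 3 rose and 17 were not called, and in the small subunit 7 fell, 6 rose and 12 were not called. Mrpl1, among the 23, passed the filter through the control alone, where it is high. A gene was called at a limma p below 0.05 after Benjamini-Hochberg adjustment over all 9099 genes tested, of which 73.8% were called, 30.5% as lower and 43.3% as higher. The share of large-subunit genes that fell was 53.5% and the share that rose was 6.98%. Of the small-subunit genes 28.0% fell, close to the 30.5% for the whole tested set, and 24.0% rose, below the 43.3% there. The median log2 fold change, on the log2(RPKM + 1) scale, was -0.31 over the large and -0.08 over the small subunit, and 0.14 over all genes tested. Relative to all genes the medians were thus -0.45 and -0.22.

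**Figure D1:**
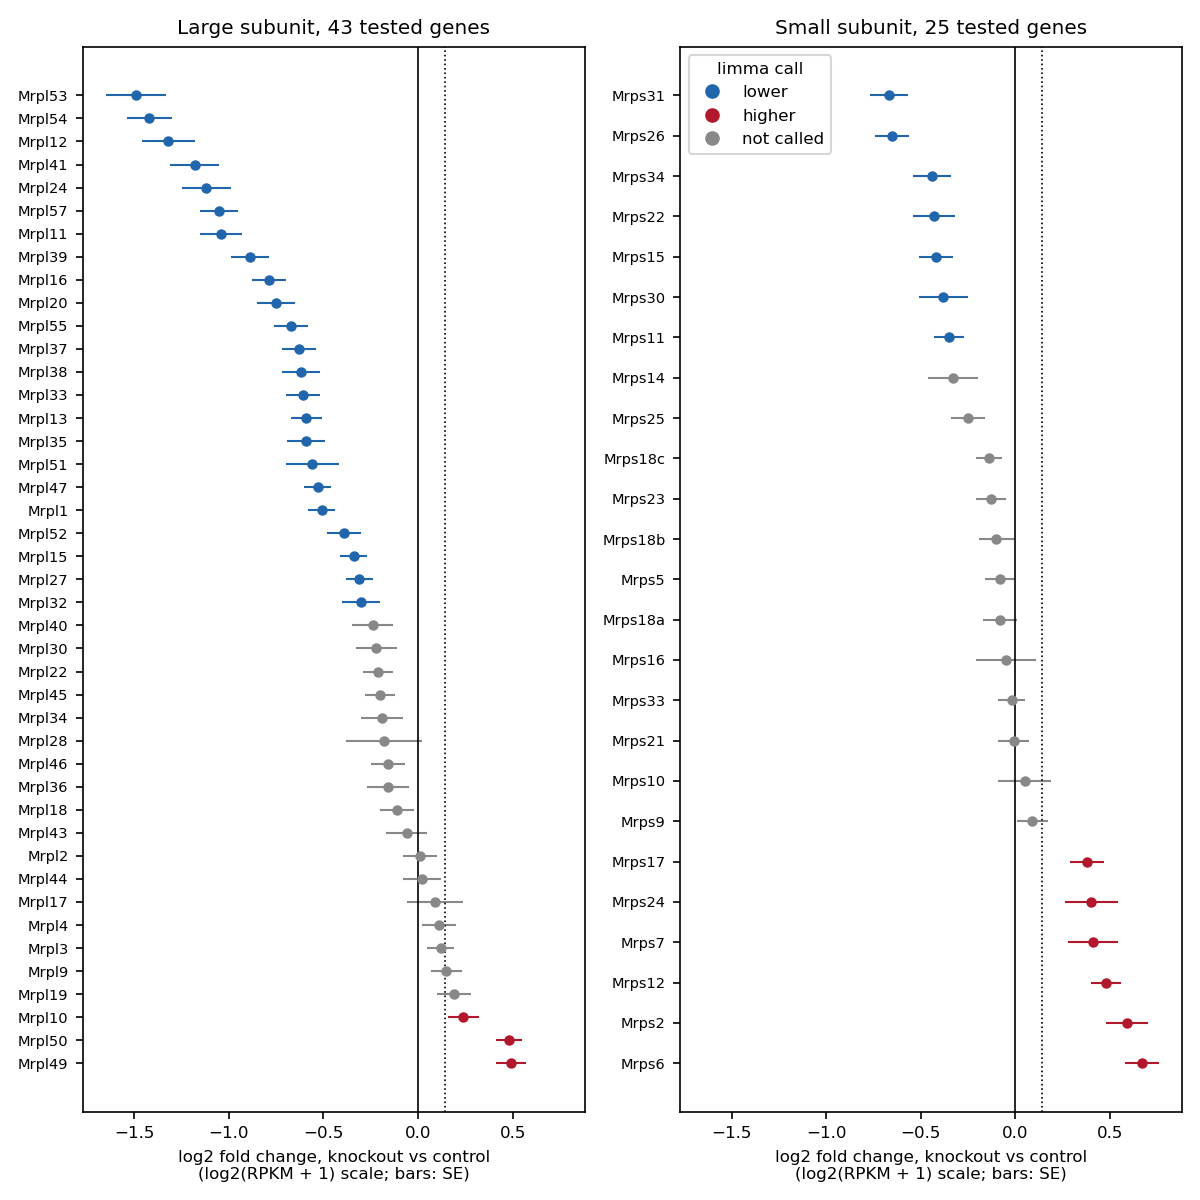
Log2 fold change of each tested member, knockout against control, on the log2(RPKM + 1) scale with its standard error (bars), for 43 genes of the large (left) and 25 of the small subunit (right); colour gives the limma call and the dotted line the median of all genes tested, 0.14. Most large-subunit genes lie left of 0, down to -1.49 for Mrpl53, and the small-subunit genes spread over both sides, from -0.67 for Mrps31 to 0.67 for Mrps6.

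The counts depended on how the libraries were scaled to each other, and the order of the subunit medians did not under the scalings tried. With an equal RPKM sum per library, 16 large-subunit genes were lower and 14 higher, and 2 small-subunit genes were lower and 7 higher. With an equal median, 31 and 2 of the large and 16 and 3 of the small subunit were lower and higher. With quantile normalization these counts were 25 and 5, and 12 and 5. The equal sum moved the median of all genes to 0.46, the equal median to -0.05 and the quantile normalization to 0.01. Relative to that median, the large subunit lay at -0.43, -0.45 and -0.41 under these 3 scalings, and the small subunit at -0.25, -0.22 and -0.28. As deposited, 38 of 43 large-subunit and 19 of 25 small-subunit genes had a log2 fold change below the median of all genes. With an equal RPKM sum these were 39 of 45 and 19 of 25, and with an equal median 38 of 43 and 19 of 25. With quantile normalization they were 31 of 43 and 18 of 25, shares that hardly differ between the subunits.

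The difference between the subunits can also be read inside each library, where a factor common to all genes cancels. A change that varies with the RPKM level does not cancel. The mean log2 RPKM of the 43 tested large-subunit genes exceeded that of the 25 small-subunit genes by 1.07 and 1.06 in control replicates 1 and 2. The same difference was 0.70 and 0.63 in knockout replicates 1 and 2, so the groups did not overlap and the mean fell by 0.39. Over all 77 members it was 1.15 and 1.10 in the control and 0.79 and 0.74 in the knockout. With Mrps18a and Mrps30 counted with the large subunit the mean fell by 0.40, and with members that overlap no other gene it fell by 0.28. Members are not replicates, and they were chosen with results of these data known, so no p is given for these differences. Over all genes tested, the median log2 fold change was 0.28 below a mean of 5 RPKM. It was -0.12 from 5 to below 20 RPKM and -0.73 at 20 RPKM or more. Large-subunit genes had the higher RPKM, and the part of the RPKM level in these differences was not tested.

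**Figure D2:**
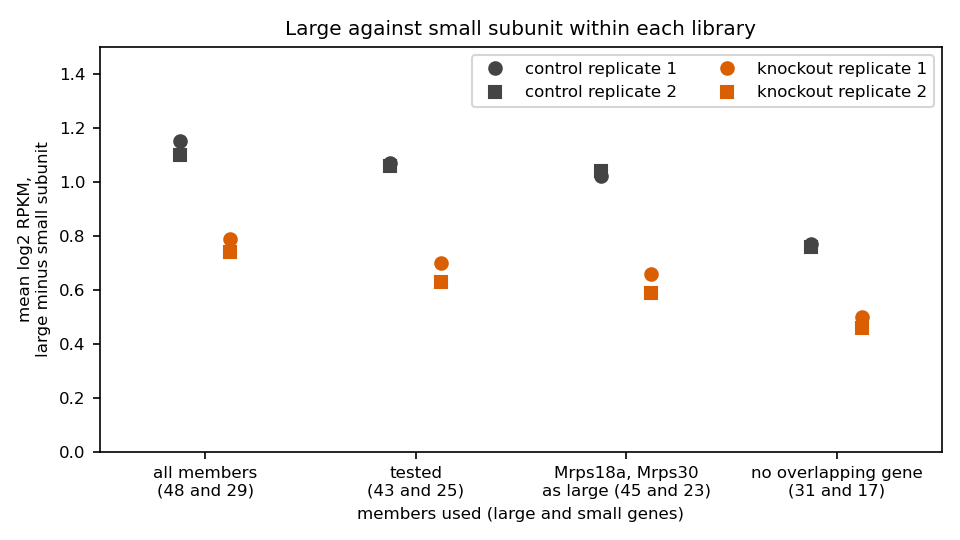
Mean log2 RPKM of large-subunit genes minus that of small-subunit genes in each library, for 4 choices of members with the number of large and small genes below each. In every choice both knockout libraries (orange) lie below both control libraries (grey), for example 0.70 and 0.63 against 1.07 and 1.06 for the tested members.

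The largest fall among tested members was that of Mrpl53. This protein of the large subunit is specific to mitochondria. Mrpl53 had 133 and 143 RPKM in control replicates 1 and 2 and 55.3 and 42.6 RPKM in knockout replicates 1 and 2. Both knockout values lay below both control values, and the mean was 2.82-fold lower (log2 fold change -1.49, SE 0.16, limma adjusted p = 0.0016). Mrpl54, also specific to mitochondria, had 55.2 and 58.8 RPKM in the control and 22.4 and 19.1 RPKM in the knockout, 2.75-fold lower (log2 fold change -1.42, SE 0.12, limma adjusted p = 0.0014). Mrpl41 fell from 27.3 ± 3.36 to 11.5 ± 1.22 RPKM (SD, n = 2 libraries per group, limma adjusted p = 0.0016), 2.39-fold. Mrpl57, a short protein once named Mrp63, fell from 28.4 ± 1.05 to 13.2 ± 0.885 RPKM, 2.16-fold.

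Mrpl12, a protein of the ribosomal stalk, which recruits translation factors, that also binds the mitochondrial RNA polymerase, had 20.9 and 24.3 RPKM in the control libraries and 9.49 and 7.52 RPKM in the knockout libraries, 2.66-fold lower (log2 fold change -1.32, SE 0.14, limma adjusted p = 0.0016). Mrpl11, at the base of the stalk, fell 2.17-fold. Mrpl10, on which Mrpl12 is anchored, had 7.24 and 6.96 RPKM in the control and 8.41 and 8.76 RPKM in the knockout, 1.21-fold higher (log2 fold change 0.24, SE 0.08, limma adjusted p = 0.044). The call of Mrpl10 ended with an equal median (adjusted p = 0.61), with the replicate block (0.070), and without control replicate 1 (0.19), control replicate 2 (0.27) or knockout replicate 2 (0.068). Mrpl24, whose bacterial counterpart lies at the mouth of the exit tunnel, had 63.9 and 63.4 RPKM in the control and 31.4 and 26.4 RPKM in the knockout. Its fall was 2.20-fold (log2 fold change -1.12, SE 0.13, limma adjusted p = 0.0016). Mrpl39, which resembles a part of threonyl-tRNA synthetase, fell from 8.47 ± 0.293 to 4.10 ± 0.452 RPKM.

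Besides Mrpl10, the large-subunit genes that rose were Mrpl49 and Mrpl50, both specific to mitochondria. Mrpl50 had 2.44 and 2.50 RPKM in the control and 3.83 and 3.82 RPKM in the knockout, 1.55-fold higher (log2 fold change 0.48, SE 0.07, limma adjusted p = 0.0031). Mrpl49 had 5.21 and 5.66 RPKM in the control and 7.97 and 8.06 RPKM in the knockout, 1.48-fold higher (log2 fold change 0.49, SE 0.08, limma adjusted p = 0.0046). The call of Mrpl49 ended without control replicate 1 (adjusted p = 0.054). Of the 23 genes that fell, 16 kept that call under each of the 3 other scalings and with each library left out in turn, and of the 3 that rose 1 did, Mrpl50.

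**Figure D3:**
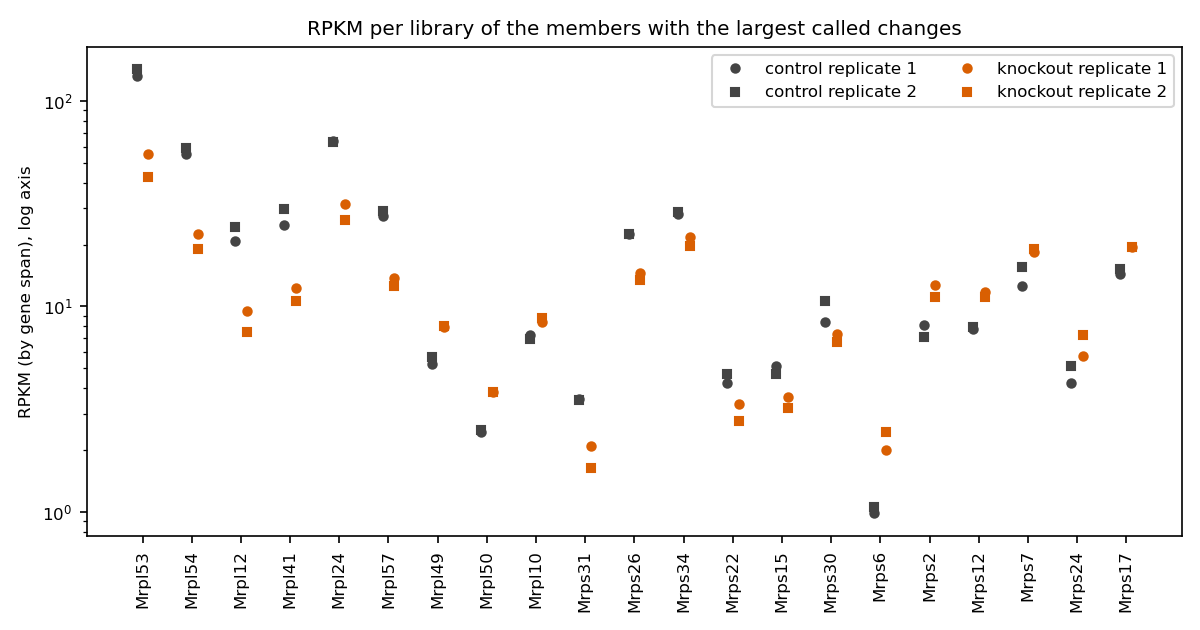
RPKM of each library on a log axis for the 21 members with the largest called changes in each subunit and direction, with control libraries in grey and knockout libraries in orange. The control libraries of Mrpl53 lie at 133 and 143 RPKM against 55.3 and 42.6 in the knockout, and the knockout libraries of Mrps6 at 1.99 and 2.43 against 0.981 and 1.05 in the control.

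Promoters are shown for the tested members with the largest called fall and rise and for a member that holds the most kinds of motif, because genes of this class are known for promoters with sites of nuclear respiratory factor 1, ETS factors, YY1 and SP1. The motifs searched were GCGCATGCG (NRF1), CCGGAAG (ETS), AAGATGGCG (YY1) and GGGCGG (SP1), on both strands, from 250 bases before to 50 bases after each start in RefSeq, build GRCm38.p6. Each sequence below holds the 250 bases before the start, 5′ to 3′ in the direction of transcription, with motif matches in capitals, and matches may touch or overlap.
Mrpl53 (chr6:83108858-83109107, plus strand): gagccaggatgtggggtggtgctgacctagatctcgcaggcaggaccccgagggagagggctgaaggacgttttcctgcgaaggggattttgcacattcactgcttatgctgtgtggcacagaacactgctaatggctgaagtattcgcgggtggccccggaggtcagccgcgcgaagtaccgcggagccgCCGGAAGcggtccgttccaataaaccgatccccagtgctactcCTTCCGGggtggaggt
Mrps6 (chr16:92058086-92058335, plus strand): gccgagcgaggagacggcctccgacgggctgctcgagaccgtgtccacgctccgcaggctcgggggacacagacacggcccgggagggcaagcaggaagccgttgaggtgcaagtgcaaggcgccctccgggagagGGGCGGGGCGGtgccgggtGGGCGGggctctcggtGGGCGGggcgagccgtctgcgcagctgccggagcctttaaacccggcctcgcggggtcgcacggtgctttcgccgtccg
Mrpl17 (chr7:105811088-105811337, minus strand): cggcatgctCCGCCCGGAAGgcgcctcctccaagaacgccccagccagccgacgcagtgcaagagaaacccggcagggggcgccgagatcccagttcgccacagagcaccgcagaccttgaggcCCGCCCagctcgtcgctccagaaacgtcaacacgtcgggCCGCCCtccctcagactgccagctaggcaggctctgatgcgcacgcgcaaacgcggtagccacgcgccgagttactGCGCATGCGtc

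The Mrpl53 stretch holds the ETS motif on each strand, and the Mrps6 stretch holds 4 matches to the SP1 motif. The Mrpl17 stretch holds the SP1, ETS and NRF1 motifs. Mrpl17, a counterpart of a bacterial protein, was not called, with 5.20 and 7.14 RPKM in the control and 6.81 and 6.29 RPKM in the knockout. RefSeq promoters were found for 68 of the 77 members, 74 promoters in all. The ETS motif was in 33.8% of member promoters, 20.8% of promoters of tested genes and 8.86% of all promoters. The NRF1 motif was in 9.46%, 4.31% and 1.75%, and the YY1 motif in 10.8%, 3.63% and 1.40%. The SP1 motif was in 52.7%, 63.7% and 35.7%. Among promoters of members that fell, 8 of 25 held the ETS motif, against 1 of 9 among those that rose and 13 of 30 among those not called. A match gives the letters in this window and no binding was measured.

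In the small subunit the genes that fell were mainly those of mitochondria-specific proteins, a grouping made after the values were seen. Mrps31 had 3.52 and 3.50 RPKM in the control and 2.08 and 1.63 RPKM in the knockout, 1.90-fold lower (log2 fold change -0.67, SE 0.10, limma adjusted p = 0.0032). Mrps26 had 22.4 and 22.5 RPKM in the control and 14.5 and 13.4 RPKM in the knockout, 1.61-fold lower (log2 fold change -0.65, SE 0.09, limma adjusted p = 0.0027). Mrps31 and Mrps26 kept the call under each of the 3 other scalings and with each library left out in turn. The other 5 genes that fell did not.

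Mrps34 and Mrps22, in which mutations cause mitochondrial translation defects in people, were lower by 1.37-fold and 1.46-fold. Mrps34 fell from 28.4 ± 0.484 to 20.7 ± 1.52 RPKM (SD, n = 2 libraries per group, limma adjusted p = 0.013) and Mrps22 from 4.47 ± 0.313 to 3.06 ± 0.429 RPKM (limma adjusted p = 0.016). Mrps15, a counterpart of a bacterial protein, fell 1.44-fold (limma adjusted p = 0.010). With an equal RPKM sum the calls of Mrps34 (adjusted p = 0.72), Mrps22 (0.37) and Mrps15 (0.42) ended, and with quantile normalization that of Mrps34 turned to a log2 fold change of 0.04 (0.70). Without control replicate 1 those of Mrps34 (0.092) and Mrps15 (0.080) ended, and without control replicate 2 those of Mrps34 (0.11) and Mrps22 (0.093). Mrps11, of the platform of the subunit, was the seventh gene that fell, from 5.43 ± 0.0540 to 4.06 ± 0.199 RPKM. Mrps30, which sits in the large subunit, had 8.39 and 10.6 RPKM in the control and 7.34 and 6.74 RPKM in the knockout, 1.35-fold lower (log2 fold change -0.38, SE 0.13, limma adjusted p = 0.046). Its call was lost under an equal RPKM sum (adjusted p = 0.95), quantile normalization (0.095), no filter (0.086), the replicate block (0.054), and without control replicate 2 (0.26), knockout replicate 1 (0.075) or knockout replicate 2 (0.15).

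The 6 small-subunit genes that rose all code for counterparts of bacterial proteins, a grouping made after the values were seen. They are 40.0% of the 15 tested small-subunit genes of that origin, near the 43.3% of all genes that rose. Mrps6 had 0.981 and 1.05 RPKM in the control and 1.99 and 2.43 RPKM in the knockout, 2.18-fold higher (log2 fold change 0.67, SE 0.09, limma adjusted p = 0.0026). Mrps2 had 8.08 and 7.06 RPKM in the control and 12.7 and 11.1 RPKM in the knockout, 1.57-fold higher (log2 fold change 0.59, SE 0.11, limma adjusted p = 0.0068). Mrps12, of the decoding centre, had 7.79 and 7.96 RPKM in the control and 11.7 and 11.1 RPKM in the knockout, 1.45-fold higher (log2 fold change 0.48, SE 0.08, limma adjusted p = 0.0048). In each of these 3 genes both knockout libraries lay above both control libraries.

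Mrps7, of the head of the subunit, rose from 14.0 ± 2.18 to 18.8 ± 0.466 RPKM (SD, n = 2 libraries per group, limma adjusted p = 0.036). Mrps17 rose from 14.8 ± 0.626 to 19.5 ± 0.0796 RPKM (limma adjusted p = 0.014), and Mrps24, which lines the entry of the messenger RNA, from 4.66 ± 0.638 to 6.48 ± 1.08 RPKM (limma adjusted p = 0.049). Of the 6 genes, Mrps6 kept its call under each of the 3 other scalings and with each library left out. The call of Mrps2 ended without control replicate 2 (adjusted p = 0.055) and that of Mrps12 without control replicate 1 (0.055). The call of Mrps17 ended with an equal median (0.13) and without control replicate 1 (0.15) or 2 (0.091), and that of Mrps7 with an equal median (0.18), no filter (0.065), and without control replicate 1 (0.26), knockout replicate 1 (0.071) or knockout replicate 2 (0.097). The call of Mrps24 ended with pseudocounts of 0.1 (0.053) and 0.5 (0.051), without control replicate 1 (0.23), control replicate 2 (0.058) or knockout replicate 2 (0.16), and under 4 further settings. Without control replicate 1, 4 small-subunit genes were lower and 2 higher, and without control replicate 2, 3 were lower and 3 higher. Without control replicate 1, 18 large-subunit genes were lower and 1 higher.

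The 3 paralogs that descend from the bacterial S18 protein were not called. Mrps18b had 4.02 and 4.55 RPKM in the control and 3.92 and 3.92 RPKM in the knockout, Mrps18a 2.23 and 2.71 against 2.27 and 2.28, and Mrps18c 1.26 and 1.17 against 1.07 and 0.957. With an equal median all 3 passed the threshold as lower (adjusted p = 0.028, 0.042 and 0.013), with quantile normalization Mrps18a (0.035) and Mrps18c (0.0044) did, and with an equal RPKM sum their log2 fold changes were 0.23, 0.21 and 0.08. Mrps16, of the body of the subunit, had 6.13 and 8.24 RPKM in the control and 7.46 and 6.27 RPKM in the knockout. Mrpl44, which carries a ribonuclease III-like fold, had 4.82 and 5.80 RPKM against 5.39 and 5.37. The groups of Mrps16 and Mrpl44 overlapped, and Mrpl44 passed the threshold as higher with an equal RPKM sum (limma adjusted p = 0.018).

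Several members with a high RPKM were not called. Mrpl43 had 41.4 and 43.4 RPKM in the control and 42.2 and 39.3 RPKM in the knockout. Mrpl36 had 29.7 and 33.4 RPKM against 27.3 and 28.7. Mrpl34 had 26.5 ± 2.68 and 23.1 ± 1.09 RPKM, and Mrpl2, of the peptidyl transferase region, 14.0 ± 0.530 and 14.1 ± 0.254 (SD, n = 2 libraries per group). These members depended on the scaling. With an equal RPKM sum Mrpl43 (limma adjusted p = 0.019), Mrpl2 (0.0092) and Mrpl9 (0.0026) passed the threshold as higher, and with quantile normalization Mrpl43 (0.0076) and Mrpl9 (0.031) did. With an equal median Mrpl36 (0.033), Mrpl34 (0.034), Mrpl40 (0.016) and Mrps25 (0.011) passed it as lower, and Mrps25 also did at 5 RPKM or more (0.048). The control libraries of Mrpl28 differed most among these, at 12.1 and 18.2 RPKM, around the knockout values of 12.9 and 13.1. Mrpl9 had 9.46 ± 0.183 and 10.6 ± 0.409 RPKM, Mrpl40 7.93 ± 0.504 and 6.59 ± 0.820, and Mrps25 11.7 ± 0.361 and 9.65 ± 0.653. Over all tested members, the control and knockout values did not overlap in 37 of 43 genes of the large and 18 of 25 of the small subunit, against 89.9% of all genes tested.

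Of the tested members, 1 passed the filter through the control libraries alone, Mrpl1, and 0 passed through the knockout alone. Mrpl1 had 1.38 and 1.48 RPKM in the control and 0.717 and 0.688 RPKM in the knockout. Its fall, favoured by the filter, is counted among the 23 of the large subunit and the 16 that kept their call. It is also counted among the falls below 5 RPKM and among those with a bacterial counterpart. Mrps6 reached 1 RPKM in control replicate 2 (1.05) and not in control replicate 1 (0.981). Its pass thus rests on the knockout libraries, where it is high (1.99 and 2.43 RPKM), and its rise is also favoured by the filter. The 9 members below the filter had 0.138 to 1.02 RPKM and were not tested. They were Mrpl14, Mrpl21, Mrpl23, Mrpl42, Mrpl48, Mrps27, Mrps28, Mrps35 and Mrps36. Mrps36 had 0.138 and 0.148 RPKM in the control and 0.235 and 0.514 RPKM in the knockout, and Mrpl23 0.220 and 0.149 against 0.365 and 0.524. Mrps28, in contrast, had 0.375 and 0.413 RPKM in the control and 0.258 and 0.216 RPKM in the knockout.

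Across the whole table genes with a higher RPKM fell more often, and large-subunit genes had a higher RPKM than small-subunit genes. The members were therefore also set beside genes of like RPKM. This RPKM is scaled by whole gene span, introns included, so genes of like RPKM need not have like transcript levels. Among genes with a mean over the 4 libraries from 5 to below 20 RPKM, 41.7% of all genes fell and 31.6% rose. In that range 12 of 22 large-subunit genes fell and 2 rose, and 2 of 10 small-subunit genes fell and 5 rose. Below 5 RPKM, 22.1% of all genes fell and 51.2% rose, while 6 of 13 large-subunit genes fell and 1 rose, and 4 of 14 small-subunit genes fell and 1 rose. At 20 RPKM or more, 65.2% of all genes fell, with 5 of 8 large-subunit genes (62.5%) and the only small-subunit gene there, Mrps34. Of all genes there 14.9% rose, and 0 of the large subunit. The median log2 fold change in this range was -0.81 over the large subunit and -0.73 over all genes. Mrpl53, Mrpl54, Mrpl24 and Mrpl57 lie in it, so their falls are among genes that fell at a share near that of all genes.

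**Figure D4:**
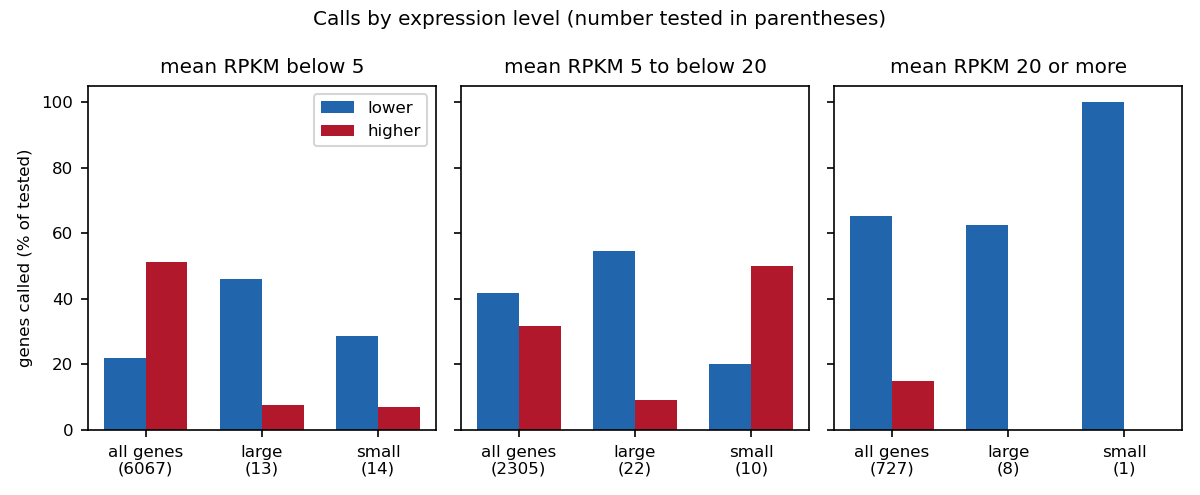
Share of tested genes called lower (blue) or higher (red) in the knockout, in 3 ranges of mean RPKM by gene span over the 4 libraries. Bars are for all genes and for each subunit, with the number tested in parentheses. From 5 to below 20 RPKM, 54.5% of 22 large-subunit genes fell and 9.09% rose, against 2 and 5 of 10 small-subunit genes.

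The members were also grouped by origin, as counterparts of bacterial proteins or proteins specific to mitochondria. Over all genes tested, 30.5% were lower and 43.3% higher. In the large subunit 13 of 26 tested genes with a bacterial counterpart fell and 1 rose, with a median ratio of knockout to control RPKM of 0.778. In the small subunit 2 of 15 fell and 6 rose, a share of rises near that of all genes, with a median ratio of 1.05. Of mitochondria-specific proteins, 9 of 16 in the large subunit fell and 2 rose (median ratio 0.710), and 5 of 8 with a small-subunit name fell and 0 rose (median ratio 0.735), Mrps30 among them. The median ratio over all genes tested was 1.14. This grouping was made after the values were seen, and the difference between its groups was not tested. Mrpl55 and Mrps36 were not placed, and Mrps18a and Mrps18b were kept apart.

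**Figure D5:**
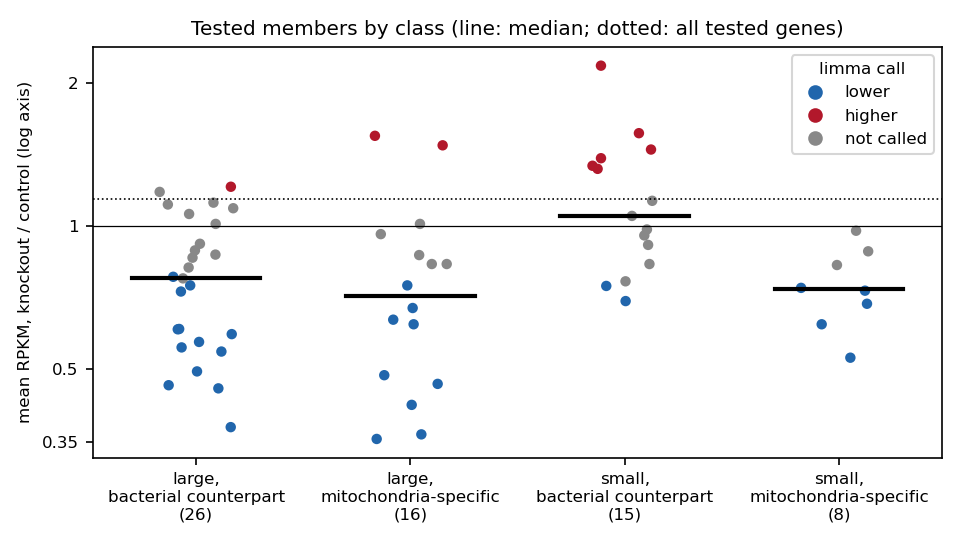
Ratio of mean RPKM, knockout over control, on a log axis for tested members by subunit and origin, with the number of genes in parentheses; the black lines are medians and the dotted line is the median of all genes tested, 1.14. The medians are 0.778 and 0.710 in the large subunit and 1.05 and 0.735 in the small subunit.

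The deposited RPKM values are scaled by whole gene span, introns included, so reads of genes inside or beside a member's span can enter its value, and the library kit does not mark strand. In RefSeq, 25 of the 77 members overlap another gene. The 52 that overlap none gave 24 lower, 5 higher and 19 not called among 48 tested. In the large subunit 17 of 31 were lower (54.8%) and 2 higher (6.45%). In the small subunit 7 of 17 were lower (41.2%) and 3 higher (17.6%), against 28.0% and 24.0% with the overlapping members kept. Over all genes tested 30.5% were lower and 43.3% higher. Mrps6 holds Slc5a3, an inositol transporter gene, in its span, and Slc5a3 had 0.633 and 0.712 RPKM in the control and 1.62 and 2.21 RPKM in the knockout. Mrpl53 overlaps Ccdc142, which fell from 8.13 ± 0.0471 to 3.71 ± 0.572 RPKM, and Mrpl24 overlaps Rrnad1, which fell from 13.2 ± 0.409 to 7.89 ± 0.643 RPKM (SD, n = 2 libraries per group). Mrps7 overlaps Mif4gd, which fell from 105 to 46.6 RPKM, and Gga3, with 1.01 and 0.999 RPKM in the control and 1.90 and 2.33 RPKM in the knockout. Mrps18a overlaps Rsph9, a radial spoke gene, which fell from 5.66 to 1.95 RPKM. Mrpl43 overlaps the helicase gene Peo1 (Twnk), which rose from 4.08 to 6.42 RPKM. Mrpl57, Mrps2 and Mrpl49 overlap Ska3, 1700007K13Rik and Syvn1, and the first 2 of these neighbours were at or below 1.03 RPKM in every library. The part of these neighbours in the members' values was not tested.

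Levels of different genes cannot be compared on the span scale. After rescaling to the length of the principal GENCODE transcript, the median over 40 large-subunit genes was 36.3 in the control and 30.8 in the knockout, in RPKM per transcript length. Over 22 small-subunit genes it was 27.9 and 27.2. Mrpl24 had the highest rescaled level in the control, 253, followed by Mrpl54 with 208 and Mrpl53 with 164. In the knockout these were 115, 75.6 and 58.1. Reads from introns and neighbours are still in these values.

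Mitoribosomal proteins whose symbol does not start with Mrpl or Mrps are no members and were counted from a list. Of 6 tested, 4 fell, 1 rose and 1 was not called, where 30.5% of all genes tested fell and 43.3% rose. Dap3, the GTPase of the small subunit, fell from 8.25 ± 0.590 to 5.34 ± 0.159 RPKM (SD, n = 2 libraries per group, limma adjusted p = 0.0039). Aurkaip1 and Chchd1, also of the small subunit, fell from 65.5 ± 0.893 to 30.2 ± 6.92 RPKM and from 40.3 ± 2.76 to 22.5 ± 2.52 RPKM. Gadd45gip1, of the large subunit, fell 1.53-fold, and Ict1, the peptidyl-tRNA hydrolase of the large subunit, rose 1.24-fold (limma adjusted p = 0.044). Ptcd3, of the small subunit, had 2.57 and 2.57 RPKM in the control and 2.41 and 2.25 RPKM in the knockout. The small-subunit genes called in this list, Dap3, Aurkaip1 and Chchd1, all fell, whereas the small-subunit members moved both ways. Aurkaip1 and Chchd1 were above 20 RPKM in every library, and 65.2% of all genes with a mean of 20 RPKM or more fell. The difference between this list and the members was not tested. Dap3 lost its call under an equal RPKM sum (adjusted p = 0.11), with which 2 of the 6 were lower. That of Ict1 ended with an equal median (0.66), quantile normalization (0.70), no filter (0.054), the replicate block (0.058), and without each of the 4 libraries (0.068 to 0.29).

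Of 24 tested genes that assemble the mitochondrial ribosome or modify its RNA, 7 were lower, 6 higher and 11 not called, with a share of lower genes near the 30.5% of all genes. Nsun4 and Gtpbp10, both higher, passed the filter through the knockout alone, and Tfb1m, not called, through the control alone. The other 21 genes held 7 lower and 4 higher. Among them Mterf3 and Mterf4 were 1.85-fold and 1.89-fold lower and Mettl17 1.56-fold lower, all 3 factors of ribosome assembly. Noa1, an assembly GTPase, rose 2.45-fold, Mrm1, a ribosomal RNA methyltransferase, 2.70-fold, and Mpv17l2, 1.90-fold. Under an equal RPKM sum Mettl17 lost its call (adjusted p = 0.13), and 2 of the 24 were lower and 11 higher. With an equal median 12 were lower and 4 higher. Without control replicate 1 these counts were 4 and 3, and without control replicate 2 they were 4 and 4.

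Translation factors of mitochondria were lower in 2 of 13 cases, higher in 4 and not called in 7. Over all genes tested, 30.5% were lower and 43.3% higher. The initiation factor gene Mtif3 fell 1.90-fold, and Slirp, whose product stabilizes mitochondrial messenger RNA, fell 2.03-fold. Oxa1l, the inner membrane insertase, rose 1.78-fold, and the release factor gene Mtrf1l rose from 0.449 ± 0.114 to 1.31 ± 0.216 RPKM. Guf1, a translation GTPase, rose 1.80-fold. Of the 4 genes that rose, Mtrf1l, Guf1 and Lrpprc passed the filter through the knockout alone, as did Gfm2, which was not called. Of the other 9 genes, 2 were lower and 1, Oxa1l, higher. Under an equal RPKM sum 8 of the 13 translation factors were higher, and with quantile normalization 6 were lower. Among 12 mitochondrial aminoacyl-tRNA synthetase genes, 1 fell, 4 rose and the other 7 had no call, beside the same shares of all genes. Through the knockout alone 2 of the 4 passed the filter. Aars2 fell 1.50-fold, while Vars2 rose 1.95-fold and Iars2 1.39-fold. The calls of Aars2 and Iars2 ended without control replicate 1 (adjusted p = 0.067 and 0.083). That of Aars2 also ended under an equal RPKM sum (0.30), and that of Iars2 without control replicate 2 (0.13), with quantile normalization (0.42) and under an equal median (0.21). Without control replicate 1, 0 synthetase genes were lower and 1 higher, and without control replicate 2, 1 and 1.

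For mitochondrial transcription and mitochondrial DNA and RNA handling, 14 genes were tested, of which 9 were higher, 1 was lower and 4 were not called, where 43.3% of all genes were higher. Of the 9, Tfam, Tfb2m and Ssbp1 passed the filter through the knockout alone, where they are high, and of the other 11 genes 6 were higher and 1 lower. Tfam, which packages mitochondrial DNA and starts its transcription, rose from 0.929 ± 0.0585 to 2.28 ± 0.420 RPKM (SD, n = 2 libraries per group, limma adjusted p = 0.0027). Hsd17b10 and Trmt10c, subunits of the enzyme that processes mitochondrial transfer RNA, rose 2.49-fold and 1.78-fold. The gene that fell, the terminator factor gene Mterf1a, was 1.65-fold lower (limma adjusted p = 0.026), and its call ended under an equal RPKM sum (0.20), no filter (0.067), and without control replicate 1 (0.10) or 2 (0.069). With an equal median 6 of the 14 were higher and 3 lower, with quantile normalization 5 and 2, and without control replicate 1, 4 were higher and 0 lower. Of 15 transcripts of the mitochondrial genome looked up by symbol, 0 were found among the genes, so they were not analysed here.

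Cytosolic ribosomal proteins, the nearest comparison, had 30 of 79 genes lower, 9 higher and 40 not called, where 30.5% of all genes were lower and 43.3% higher. Their median log2 fold change was -0.21, the same as the -0.21 over all 68 tested mitochondrial members, against 0.14 over all genes. A median below that of all genes is thus shared by both families. The cytosolic genes were counted without a split by subunit, so these counts do not show whether the subunit order is particular to mitochondria. Rpl39l and Rpl10l, copies used in the testis, were 3.12-fold and 2.21-fold lower, and Rpl24 was 2.09-fold lower. Rps4x, Rpl10 and Rpl39, which are X-linked, rose 3.35-fold, 2.91-fold and 2.01-fold, and Rps4x passed the filter through the knockout alone. With an equal RPKM sum 7 were lower and 30 higher, and with quantile normalization 13 and 19, where the call of Rpl10l ended (adjusted p = 0.45). Without control replicate 1, 17 were lower and 5 higher, and without control replicate 2, 8 and 6. The difference between these genes and the mitochondrial ones was not tested. None of the 77 members lies on a sex chromosome (0 of 77).

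Several markers of other cells and stages moved with the groups. Summed RPKM of 15 Sertoli cell markers was 89.7 to 107 in the control and 261 to 318 in the knockout, and 12 of the 12 tested were higher. The sums were 17.3 to 17.8 and 46.9 to 56.1 for 6 Leydig cell markers, 2.55 to 3.85 and 6.68 to 9.56 for 6 macrophage markers, and 4.04 to 4.15 and 12.9 to 20.3 for 6 markers of peritubular cells and stroma. Of the tested markers in these 3 lists, 4 of 5, 3 of 3 and 4 of 4 were higher, and 0 markers were at 0 in every library. Through the knockout alone, where they are high, 2 of the tested Sertoli cell, 1 of the Leydig cell, 2 of the macrophage and 1 of the peritubular and stromal markers passed the filter. Pachytene spermatocyte markers, present in the control at a sum of 1240 to 1260 RPKM, fell to 456 to 579, with 9 of 9 tested lower. Of 7 spermatid markers, Dnajb3, Acr and Tssk1 were tested and lower, Dnajb3 with 319 and 313 RPKM in the control and 98.2 and 60.1 RPKM in the knockout. Tnp1, Prm1, Prm2 and Acrv1 were below the filter. Of 7 meiotic entry markers 5 were higher and 1 lower, and of 3 tested spermatogonial markers 3 were higher, of which 2 and 1 passed the filter through the knockout alone. Their part in the members' changes was not tested, and in bulk RNA fewer cells of a type cannot be told apart from less RNA per cell. Uhrf1 had 3.11 and 3.29 RPKM in the control and 1.87 and 1.48 RPKM in the knockout (limma adjusted p = 0.0031), over the whole gene.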

How the data were processed

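Poly(A) RNA was read as 50-base pairs, per the labels' protocols. The authors deposited 1 table of RPKM values with 1 column per library. The submitters' processing notes name Bowtie2 and build mm9, and no counting program or annotation is given in the sources used here. Low RPKM values stepped evenly with gene span (54.9% to 66.5% of low values per library within 0.05 of a whole step) and not with transcript length (9.0% to 10.1%, where 10% falls there by chance). The steps correspond to about 11600000 and 25600000 reads in control replicates 1 and 2 and 22200000 and 9600000 reads in knockout replicates 1 and 2. Most were even, as mates of a pair give. A tested member then rests on an estimated 52 to 8636 reads per library. Whole reads were not recovered for the other values, so no count test was run.

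Groups were taken from the sample titles. From 24444 rows, 27 whose symbol had become a date and 29 of a repeated symbol (the lower mean) were left out. Genes at 1 RPKM or more in at least 2 libraries were fitted as log2(RPKM + 1), a scale that understates the change of low genes, with limma 3.58.1 (R 4.3.3, mean-variance trend, two-sided, Benjamini-Hochberg adjustment). Folds are ratios of group mean RPKM. Whether replicates are separate animals is not stated, so the p-values reflect only how far these libraries differ, which may be technical. With 2 libraries against 2, the smallest p of an exact permutation test is 0.333.

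The members, lists and tests were chosen with earlier results of these data known. In each subunit and direction the text names the 6 largest called changes with separate groups, then the 8 genes not called with the highest mean RPKM. Also named are Mrps18a, Mrps18b, Mrps18c, Mrps30, Mrps36, Mrpl12, Mrps12, Mrpl44, Mrps22 and Mrps16, up to 3 called genes per partner list and direction, and Uhrf1. Some genes that this rule also names are not reported here. Other genes (such as Mrpl11, Mrpl39, Mrpl17, Mrps11, Gadd45gip1, Ptcd3 and the overlapping neighbours) were named after their values were seen, and so was the grouping by origin. The alternatives tried were a pseudocount of 0.1 or 0.5, leaving out the filter or raising it to 5 RPKM, 3 scalings between libraries, limma with no trend, the replicate number as a block, each library left out in turn, repeated rows summed, another assignment of Mrps18a and Mrps30, and members with no overlapping gene. Promoters and gene overlaps are from RefSeq (GRCm38.p6), and transcript lengths from GENCODE (release M21). Coordinates of that build are given for promoters only.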

Additional observations from a re-analysis of the deposited data

How the results depend on the processing

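The large-subunit median lay below the small-subunit median under each setting tried, with differences of -0.28 (pseudocount 0.1), -0.27 (pseudocount 0.5), -0.15 (no filter), -0.41 (RPKM of 5 or more), -0.18 (equal RPKM sum), -0.13 (quantile normalization) and -0.20 (members without an overlapping gene), against -0.23 as reported. The large-subunit median was -0.41 and -0.37 with the pseudocounts of 0.1 and 0.5, -0.23 with no filter, -0.56 at 5 RPKM or more, -0.51 with an equal median and -0.40 with quantile normalization. The small-subunit median was -0.15 at 5 RPKM or more and -0.27 with an equal median and with quantile normalization. With an equal RPKM sum both turned, to 0.03 and 0.21, and 18 members were lower and 21 higher (14 of the large subunit higher, 2 of the small lower). With an equal median 47 were lower and 5 higher (16 and 3 in the small subunit), and with quantile normalization 5 of the large subunit were higher and 12 of the small lower. Without overlapping members 5 were higher, 3 of them in the small subunit, where fewer genes were tested.

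With each library left out, 21 to 33 members were lower and 3 to 8 higher, 18 to 25 and 1 to 3 in the large and 3 to 8 and 2 to 5 in the small subunit. The medians ran from -0.38 to -0.32, from -0.17 to -0.04, and their difference from -0.28 to -0.21. The fits without 1 library assume that the lone library of a group varies like the other group.

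Among single genes, 10 named members changed sign with an equal RPKM sum: Mrpl43 (0.35), Mrpl36 (0.24), Mrpl34 (0.21), Mrpl28 (0.21), Mrps25 (0.13), Mrpl40 (0.13), Mrps18a (0.21), Mrps18b (0.23), Mrps18c (0.08) and Mrps16 (0.31). With quantile normalization Mrps34 (0.04), Mrpl43 (0.52), Mrpl36 (0.32), Mrpl34 (0.27), Mrpl28 (0.07) and Mrpl44 (-0.03) did, and with an equal median Mrpl2 (-0.18), Mrpl9 (-0.04) and Mrpl44 (-0.17). With each library left out Mrpl28 ran from -0.46 to 0.10, Mrpl2 from -0.02 to 0.05, Mrps18a from -0.18 to 0.02, Mrpl44 from -0.09 to 0.13 and Mrps16 from -0.24 to 0.14. Of these, Mrps34 alone was called as reported. The named members that gained a call under another scaling were Mrpl43, Mrpl2, Mrpl9 and Mrpl44 as higher and Mrpl36, Mrpl34, Mrpl40, Mrps25, Mrps18a, Mrps18b and Mrps18c as lower. The cause was not tested.

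With the replicate block 28 members were lower and 8 higher. The replicate numbers share only a label, and deviations of same-numbered libraries correlated at 0.11 across genes. No row of a pseudogene is among the members, so that alternative was not run. The identity of the Mrps18 proteins was not computed, since protein sequences were not used here. Of 196 recomputed counts of the partner lists, 53 moved by over 1.5 times.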
